A study of Mus musculus with 16 samples.

Results

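Slow-twitch muscle fibres build their contractile filaments and handle calcium with their own versions of proteins that fast fibres also use, and 9 such genes were followed here in mouse quadriceps: Tnnc1, Tnni1, Tnnt1, Myl2, Myl3, Tpm3, Atp2a2, Casq2 and Myh7b. They were chosen by name as slow-fibre sarcomere and calcium genes and found through their Ensembl identifiers, 9 of the 17370 genes in the deposited table, and all 9 passed the filter on low counts. Total RNA was sequenced from quadriceps, the extensor of the knee, after transection of the anterior cruciate ligament (ACL). The 4 groups of 4 libraries were injured quadriceps of mice given an inhibitor of CSF1-R (the receptor of the macrophage growth factor CSF1), injured quadriceps of mice given placebo, healthy quadriceps of mice given the inhibitor, and healthy quadriceps of mice given placebo. The inhibitor was dosed at 40 mg/kg and the placebo was 0.5% sucrose in the drinking water, each for 7 days after the transection. Each injured library shares the stem of its name with a healthy one, read here as 1 animal, so on that reading every one of the 8 animals carried a transection and the healthy libraries are not from uninjured mice. All injured libraries carry the letter R and all healthy ones L, so that letter and the injury cannot be told apart. The labels name neither the inhibitor nor the strain, sex or age of the mice.

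Contraction starts when calcium binds troponin C, which acts through troponin I and troponin T to shift tropomyosin off the myosin-binding sites of actin. Relaxation follows when the SERCA pumps return calcium to the sarcoplasmic reticulum, where calsequestrin binds it. Slow fibres, which are rich in mitochondria and resist fatigue, share most of these isoforms with the heart and are sparse in mouse quadriceps, a mainly fast muscle.

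Library totals ran from 20117023 to 27133286 counts. Levels are given as CPM, counts scaled to a common library size, and a floor of 3 counts, which reflects counting error alone, lay at 0.109 to 0.159 CPM. The defining markers of fast muscle dominated every library. Atp2a1, the fast SERCA pump, averaged 30500 ± 3190 CPM in injured inhibitor, 29400 ± 7380 CPM in injured placebo, 34100 ± 4380 CPM in healthy inhibitor and 37100 ± 5630 CPM in healthy placebo quadriceps (SD, n = 4 each). Some libraries stood apart in tissue markers. Injured placebo replicates 2 and 3 had 220 and 286 CPM of Prg4, the lubricin of joint surfaces, and 145 and 252 CPM of Myh3, the embryonic myosin heavy chain of regenerating fibres. Prg4 was also at 169 CPM in healthy inhibitor replicate 1 and at 251 CPM in healthy placebo replicate 4. Of 8 markers of cardiac muscle, which shares most of the members, Myh6 and Myl4 were in the table. Myh6, the atrial and adult mouse ventricular myosin, lay between 0.945 and 6.37 CPM. Myl4, an atrial light chain also made by developing skeletal muscle, lay between 1.60 and 54.2 CPM, and the sum of both was 49.6 and 56.2 CPM in injured placebo replicates 2 and 3, against 4.18 to 10.4 CPM in the other libraries.

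In the GENCODE M21 annotation of GRCm38 the troponin genes are Tnnc1 (ENSMUSG00000091898, chromosome 14, 31208312 to 31211729, plus strand), Tnni1 (ENSMUSG00000026418, chromosome 1, 135779434 to 135810989, plus strand) and Tnnt1 (ENSMUSG00000064179, chromosome 7, 4504570 to 4516382, minus strand). The myosin light chain genes are Myl2 (ENSMUSG00000013936, chromosome 5, 122100951 to 122113472, plus strand) and Myl3 (ENSMUSG00000059741, chromosome 9, 110741861 to 110769798, plus strand). Tpm3 (ENSMUSG00000027940, chromosome 3, 90072649 to 90100902, plus strand) encodes slow tropomyosin, and Myh7b (ENSMUSG00000074652, chromosome 2, 155611212 to 155634307, plus strand) a myosin heavy chain. The calcium genes are Atp2a2 (ENSMUSG00000029467, chromosome 5, 122453513 to 122502225, minus strand) and Casq2 (ENSMUSG00000027861, chromosome 3, 102086415 to 102146514, plus strand). Exons of Myl3 overlap those of Pth1r and exons of Myh7b overlap those of Trpc4ap, both on the opposite strand. Whether the counting used strand is not given in the sources used here. Trpc4ap had a mean count of 3154, so Myh7b, the lowest member, is uncertain for this reason. Tpm3 has a near-identical copy in the table, Tpm3-rs7, whose transcript matched that of Tpm3 at 99.4% of 2102 aligned bases, so reads could be split between them.

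Because the members moved together across libraries, as described below, their promoters were searched for short motifs known from muscle promoters. RefSeq windows of 250 bases before a transcript start on GRCm38.p6 were found for 8 of the 9 members, 11 windows in all. Some of these starts lay far from the GENCODE gene start. The distance was 19987 and 20077 bases for Tnni1, 8227 and 7762 for Myl2, 21817 for Myl3 and 6872 for 1 window of Tpm3. Which start was used in this muscle was not tested. The windows of Tnnc1 (chr14:31208062-31208311, plus strand) and Myl3 (chr9:110763428-110763677, plus strand) are shown because they were the only member windows with an MCAT motif (CATTCC, or GGAATG on the other strand), and both also held CACC boxes (CCACCC or GGGTGG). Capitals mark both motifs, and in Myl3 a CACC box and an MCAT motif overlap.
Tnnc1: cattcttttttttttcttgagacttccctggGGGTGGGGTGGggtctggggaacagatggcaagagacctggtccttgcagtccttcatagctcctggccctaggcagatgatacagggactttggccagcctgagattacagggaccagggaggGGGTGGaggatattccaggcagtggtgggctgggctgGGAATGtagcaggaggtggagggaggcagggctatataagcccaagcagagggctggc
Myl3: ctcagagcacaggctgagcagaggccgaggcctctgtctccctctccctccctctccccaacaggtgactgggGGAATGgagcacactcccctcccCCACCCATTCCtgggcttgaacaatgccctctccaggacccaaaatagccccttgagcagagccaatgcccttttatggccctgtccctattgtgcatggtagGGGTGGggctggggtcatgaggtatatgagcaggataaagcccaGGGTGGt
The MCAT motif was in 2 of the 11 member windows (18.2%), in 3 of 7 windows of the fast counterparts of the members (42.9%) and in 12.6% of all 32851 promoter windows. The CACC box was in 6 of 11 member windows (54.5%), in 3 of 7 fast windows (42.9%) and in 28.1% of all windows. The E-box CANNTG was in 11 of 11 member windows (100%), in 7 of 7 fast windows and in 66.2% of all windows, and the MEF2-like run of CTA, any 4 bases and TAG was in 0 of 11, against 3.2% of all windows. Windows of 1 gene can overlap, and a match describes letters, not binding. An intron of Myh7b holds the gene of miR-499, whose mature 5p strand is printed with its seed, bases 2 to 8, in capitals because Myh7b is its host. It lies at chr2:155622893-155622913 on the plus strand, and miR-499 itself was not measured in these counts.
mmu-miR-499-5p: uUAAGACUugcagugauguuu

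Slow troponins were detected in every library but differed up to 171-fold between libraries of the same experiment. Tnnc1, the calcium sensor of slow and cardiac troponin, had 140, 109, 72.7 and 4.54 CPM in injured inhibitor, 28.6, 51.8, 190 and 2.77 CPM in injured placebo, 115, 1.22, 67.4 and 16.1 CPM in healthy inhibitor, and 3.15, 57.3, 10.9 and 18.5 CPM in healthy placebo quadriceps, in the order of replicates 1 to 4. Each group held at least 1 library below 5 CPM, and the groups overlapped over most of their range. Tnni1, the inhibitory subunit of slow fibres, had 103, 85.7, 53.2 and 3.65 CPM in injured inhibitor, 26.8, 53.3, 137 and 1.68 CPM in injured placebo, 94.0, 0.803, 52.0 and 12.7 CPM in healthy inhibitor, and 2.14, 52.7, 7.78 and 18.5 CPM in healthy placebo quadriceps. The same libraries were high and low as for Tnnc1, with injured placebo replicate 3 highest and healthy inhibitor replicate 2 lowest. Tnnt1, the tropomyosin-binding subunit, had 144, 106, 68.1 and 7.38 CPM in injured inhibitor, 33.4, 53.7, 178 and 4.53 CPM in injured placebo, 119, 2.56, 78.2 and 18.5 CPM in healthy inhibitor, and 2.80, 53.4, 14.9 and 23.5 CPM in healthy placebo quadriceps. In bulk tissue, fewer slow fibres and less of these RNAs per slow fibre cannot be told apart.

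The myosin and tropomyosin members varied less than the troponins but in the same libraries. Myl2, the regulatory light chain, had 270, 210, 162 and 37.4 CPM in injured inhibitor, 133, 71.2, 203 and 15.7 CPM in injured placebo, 212, 22.2, 127 and 33.1 CPM in healthy inhibitor, and 23.1, 107, 47.1 and 31.7 CPM in healthy placebo quadriceps. Replicate 4 was the lowest library of both injured groups. Myl3, the essential light chain, had 381, 327, 255 and 15.8 CPM in injured inhibitor, 100, 94.7, 301 and 8.65 CPM in injured placebo, 310, 7.30, 191 and 45.4 CPM in healthy inhibitor, and 8.21, 171, 93.0 and 57.9 CPM in healthy placebo quadriceps. In the injured inhibitor group 3 libraries stood at 255 CPM or more, above at least 3 of 4 libraries of every other group. Tpm3 had 193, 185, 99.9 and 25.2 CPM in injured inhibitor, 60.8, 103, 233 and 21.8 CPM in injured placebo, 176, 16.8, 115 and 35.8 CPM in healthy inhibitor, and 16, 111, 26 and 59.7 CPM in healthy placebo quadriceps. Its copy Tpm3-rs7 followed it, and the log2 ratio of Tpm3 to the copy lay between 1.06 and 1.85 in all 16 libraries (SD 0.22). Myh7b had 13.1, 8.79, 5.16 and 3.61 CPM in injured inhibitor, 6.88, 4.36, 7.90 and 2.98 CPM in injured placebo, 9.79, 2.48, 8.43 and 2.44 CPM in healthy inhibitor, and 1.99, 7.91, 2.50 and 1.46 CPM in healthy placebo quadriceps. Its highest library was again injured inhibitor replicate 1, and its groups overlapped as well.

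The calcium genes were high and low in the same libraries. Atp2a2, the slow and cardiac SERCA pump, had 833, 764, 516 and 84.6 CPM in injured inhibitor, 479, 310, 848 and 51.0 CPM in injured placebo, 688, 46.4, 427 and 147 CPM in healthy inhibitor, and 69.0, 506, 111 and 161 CPM in healthy placebo quadriceps. Injured placebo replicate 3 and injured inhibitor replicate 1 were highest and healthy inhibitor replicate 2 lowest. Casq2, the slow and cardiac calsequestrin, had 67, 63.6, 71.3 and 21.0 CPM in injured inhibitor, 53.0, 44.8, 72.9 and 14.6 CPM in injured placebo, 55.2, 12.6, 41.8 and 14.1 CPM in healthy inhibitor, and 12.5, 51.3, 19.3 and 20.9 CPM in healthy placebo quadriceps. It had the narrowest spread of the 9 members, with 3 of 4 libraries of each injured group above 44 CPM.

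**Figure D1:**
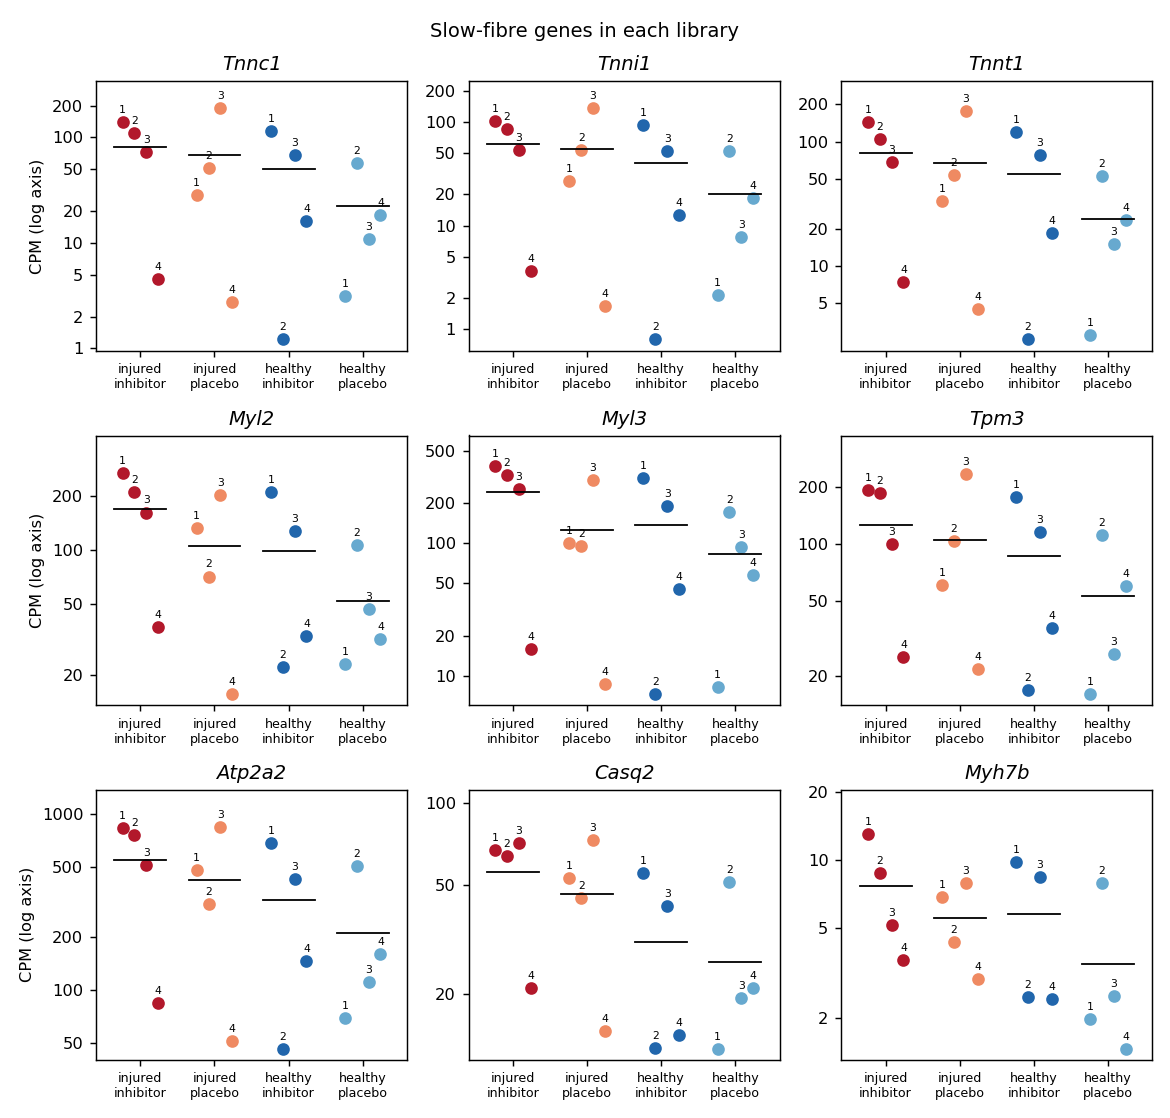
CPM on a log axis of the 9 members in each of the 16 libraries, by group; points are libraries, numbered by replicate, and bars are group means. Tnnc1 runs from 1.22 to 190 CPM over all 16, and no compared groups separate. Healthy placebo, where Tnnc1 runs from 3.15 to 57.3 CPM, holds none of the 4 highest libraries of any member.

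The spread between libraries was wide beside that of other genes. The highest library exceeded the lowest 171-fold for Tnni1, 156-fold for Tnnc1, 69.5-fold for Tnnt1, 52.2-fold for Myl3, 18.3-fold for Atp2a2, 17.2-fold for Myl2, 14.5-fold for Tpm3, 9.0-fold for Myh7b and 5.86-fold for Casq2. Over 11755 genes with a mean of at least 2 CPM the median was 1.78-fold and the 95th percentile 7.09-fold. The lowest library held 21 counts of Tnni1 and 32 of Tnnc1. Group membership took a small part of the variance of log2 CPM, 7.98% for Tnni1 to 25.8% for Myh7b with a median of 12.1%, against a median of 20.8% over all tested genes. Per kilobase of transcript, the median level over libraries was highest for Atp2a2 (60.6 CPM per kb), Myl3 (47.7), Myl2 (45.7) and Tnnc1 (38.6). Tnnt1 (19.7), Casq2 (15.8), Tpm3 (13.2) and Tnni1 (10.9 CPM per kb) followed, and Myh7b was far below at 0.718. From Atp2a2 to Tnni1, neighbours in this order overlap in their ranges over libraries.

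The members ranked libraries alike. Injured inhibitor replicates 1 and 2 were among the 4 highest libraries for 9 of 9 members, and injured placebo replicate 3 and healthy inhibitor replicate 1 for 8. Healthy inhibitor replicate 2 and healthy placebo replicate 1 were among the 4 lowest for 9 of 9, injured placebo replicate 4 for 8 and injured inhibitor replicate 4 for 6. Both ends therefore held injured and healthy libraries, and inhibitor and placebo libraries. No healthy placebo library was among the 4 highest for any member, and the best rank in that group was 5, for replicate 2. Over the 16 libraries Pearson's r of log2 CPM between members ran from 0.76 to 1.0 with a median of 0.94 over 36 pairs, and Spearman's rho from 0.78 to 0.99. These values describe libraries that share their muscle, depth and preparation, and Tnni1 with Myh7b gave the lowest r.

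The genes most like the members over the 16 libraries, by Pearson's r with the mean standardised log2 CPM of the members, were Myh7 (0.966), P3h2 (0.955), Tpm3-rs7 (0.953), Sln (0.947), Pdlim1 (0.935), Myl12a (0.931), Prox1 (0.925), Xpo4 (0.918), Lims1 (0.897) and Inpp4b (0.892). The median over all genes was -0.02. Myh7, the slow myosin heavy chain (ENSMUSG00000053093, chromosome 14, 54970684 to 54994626, minus strand), had 1550, 1250, 778 and 50.9 CPM in injured inhibitor, 426, 473, 1510 and 18 CPM in injured placebo, 1290, 5.50, 776 and 195 CPM in healthy inhibitor, and 26.8, 768, 123 and 264 CPM in healthy placebo quadriceps. Its highest library was 281 times its lowest. Sln encodes sarcolipin, an inhibitor of the SERCA pumps, and Prox1 a homeobox transcription factor. At the other end Actn3, the fast-fibre alpha-actinin, gave -0.877. Sox6, a repressor of slow-fibre genes that lay between 128 and 229 CPM, gave -0.47. It was not the lowest of the 25 listed regulators of the slow programme, which ran from -0.74 (Ppp3ca and Tbx15) to 0.93 (Prox1).

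Fast counterparts of the members were abundant and varied less than the members. Each member was set against the fast gene of the same role: Tnnc2, Tnni2, Tnnt3, Mylpf, Myl1, Tpm1, Atp2a1, Casq1 and, for Myh7b, Myh4. Their highest library exceeded their lowest by 1.89-fold for Casq1 to 3.04-fold for Tnnc2, each above the 1.78-fold median of all genes. Over the 16 libraries Atp2a1 had an r of -0.82 with the members, Myh4 -0.69 and Casq1 -0.65. The remaining fast counterparts were weaker, from -0.38 for Tnnt3 to -0.15 for Myl1. Per kilobase, the slow member's share of its pair was 0.0184% at the lowest, 0.906% at the median and 3.46% at the highest library for Tnnc1. Myl3 had the highest share at the median (3.69%) and at the highest library (10.2%), but not at the lowest (0.168%). Tnni1 ranged from 0.0106% to 2.19%, Tnnt1 from 0.0209% to 1.84%, Myl2 from 0.189% to 3.34%, Tpm3 from 0.143% to 2.27%, Atp2a2 from 0.0710% to 2.09% and Casq2 from 0.300% to 2.59%. The share of Myh7b beside Myh4 did not exceed 0.0255% in any library. No pair separated any compared groups.

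**Figure D2:**
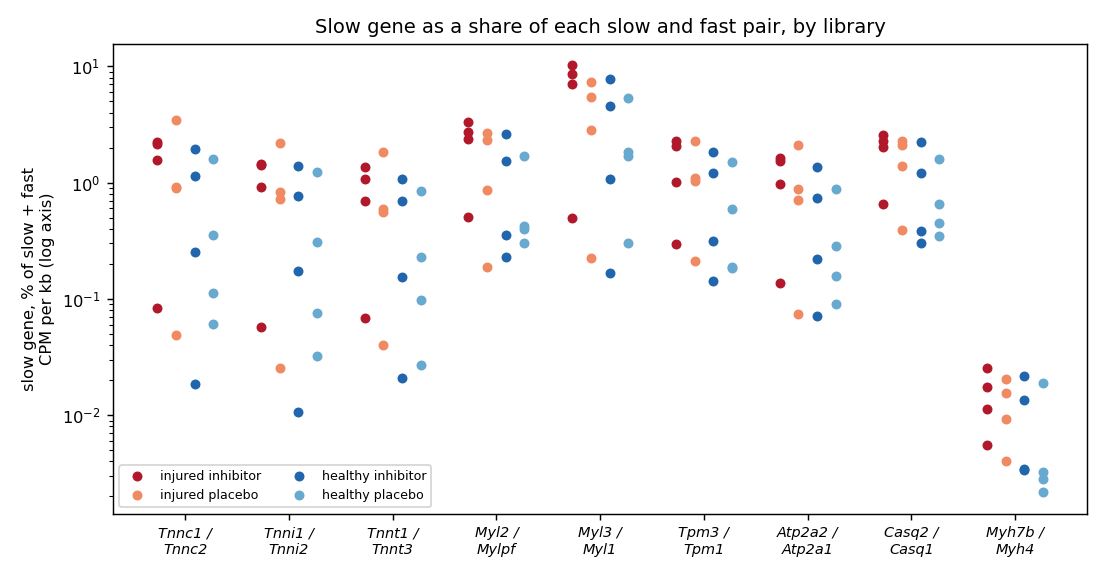
Percent of each slow and fast pair contributed by the slow member, per kilobase and on a log axis, in each of the 16 libraries by group. The slow member of 8 pairs stayed below 4% in every library and that of Myl3 reached 10.2%, and the groups overlap for every pair.

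Transection with placebo was compared first, to ask whether the injured quadriceps differed from the healthy one when macrophage growth factor signalling was left alone. The members moved together over the libraries (median r of 0.94), so their signs within a comparison are not independent. All 9 members had a positive log2 difference, with a median of 1.00, beside 0.01 over all 15411 tested genes, of which 51.1% were above 0. The largest was that of Tnnc1, which averaged 68.4 ± 83.8 CPM in injured and 22.4 ± 24.1 CPM in healthy placebo quadriceps (SD, n = 4 each), a log2 difference of 1.61 ± 1.35 (SE, adjusted p = 0.73, edgeR quasi-likelihood test with Benjamini-Hochberg adjustment over all tested genes). Casq2 averaged 46.3 ± 24.3 CPM in injured and 26.0 ± 17.2 CPM in healthy placebo quadriceps, a difference of 0.83 ± 0.62 (edgeR adjusted p = 0.70, the smallest of the members). The other members lay between 0.61 ± 1.21 for Myl3 and 1.52 ± 1.24 for Tnnt1. edgeR called no member and no other gene (0.0% of genes tested), and no member reached an unadjusted p below 0.05, which 7.24% of all genes did. DESeq2 called 2 other genes and limma-voom 0, and edgeR called 3 without injured placebo replicate 4. Neither DESeq2 nor limma-voom called a member in this or any other comparison. No member separated the groups, as 0.87% of genes did upwards and 0.681% downwards. Leaving out single libraries moved the median between 0.40, without injured placebo replicate 3, and 1.64, without healthy placebo replicate 2, where 1 member had an unadjusted p below 0.05. Without injured placebo replicate 2 alone it was 1.11. Without injured placebo replicates 2 and 3 together, the 2 libraries highest in Myh3 and both high in Prg4, 5 members had a negative difference and the median was -0.31. The part of Myh3 or Prg4 levels in the members' difference was not tested.

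Transection with the inhibitor also gave positive differences. The members' median was 0.71, beside 0.00 over all genes, and 9 of 9 were above 0, as were 51.0% of all genes. Casq2 averaged 55.7 ± 23.4 CPM in injured and 30.9 ± 21.0 CPM in healthy inhibitor quadriceps (SD, n = 4 each), a log2 difference of 0.85 ± 0.62 (edgeR adjusted p = 1.0). Myl3 averaged 245 ± 161 CPM in injured and 139 ± 139 CPM in healthy inhibitor quadriceps, a difference of 0.82 ± 1.21 (edgeR adjusted p = 1.0). The lowest was Myh7b at 0.40 ± 0.60. No member reached an unadjusted p below 0.05 (1.31% of genes did), edgeR called none (0.0%, with 1 other gene called by DESeq2), and none separated the groups (1.13% of genes did upwards). The median moved between 0.30 and 1.41 when single libraries were left out, and stayed above 0. Tnnt3, Mylpf and Myl1 of the fast list were lower in every injured than in every healthy inhibitor library, with log2 differences of -0.19 ± 0.22, -0.26 ± 0.19 and -0.28 ± 0.21, none of them called, where 1.12% of all genes separated downwards.

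The inhibitor in injured quadriceps was set against placebo in injured quadriceps. The 9 members were above 0 (46.9% of all genes were), with a median log2 difference of 0.27 beside -0.02 over all genes. Myl3 differed most, with 245 ± 161 CPM with inhibitor and 126 ± 124 CPM with placebo (SD, n = 4 each), 0.96 ± 1.22 on the log2 scale (edgeR adjusted p = 0.76). Tnni1 averaged 61.5 ± 43.8 CPM with inhibitor and 54.8 ± 58.9 CPM with placebo, 0.16 ± 1.33 (edgeR adjusted p = 0.97). With edgeR no member passed (0.0% of genes did), while over all genes DESeq2 called 255 and limma-voom 1229, with no member among them, and at an unadjusted p below 0.05 the count was 0, against 14.9% of all genes. None separated the groups (2.77% of genes did upwards and 2.87% downwards). Without injured placebo replicate 4 the median was -0.03, and without replicate 3 of that group it was 1.19. Without injured placebo replicates 2 and 3 together, a fit chosen after seeing the data, it was 1.61, with 9 of 9 above 0. In healthy quadriceps the inhibitor gave a median of 0.75, beside -0.02 over all genes, with 9 of 9 above 0 (46.0% of all genes). Tnnt1 averaged 54.6 ± 53.9 CPM with inhibitor and 23.6 ± 21.6 CPM with placebo (SD, n = 4 each), 1.21 ± 1.23 (edgeR adjusted p = 1.0). With edgeR no member passed (0.0%, with 11 other genes called by DESeq2), and none had an unadjusted p below 0.05 (3.34% of genes). None separated the groups (0.96% of genes did upwards and 1.59% downwards). Without healthy inhibitor replicate 1 the median was 0.12, and without healthy placebo replicate 2 it was 1.54, with 1 member at an unadjusted p below 0.05. Each group enters more than 1 of these comparisons, so signs shared between them are not independent.

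The difference of the injury effects, inhibitor minus placebo, had a median of -0.28 over the members and 0.00 over all genes, and ran from -0.94 ± 1.71 for Tnnt1 to 0.21 ± 1.71 for Myl3 (edgeR adjusted p = 1.0 for all members). Only Myl3 and Casq2 were above 0, where 49.5% of all genes were. This direction turned with single libraries: without injured placebo replicate 3, 8 of 9 were above 0 (median 0.33), and without healthy inhibitor replicate 1, 7 of 9 (median 0.19), whereas without healthy placebo replicate 2, 0 of 9 were (median -1.07). Without the 4 libraries highest in Prg4, 9 of 9 were above 0 (median 1.48). No member passed (0.0%) or had an unadjusted p below 0.05 (2.74% of genes). Standard errors of 0.85 to 1.89 on the log2 scale leave differences of several fold undetectable at this replication.

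**Figure D3:**
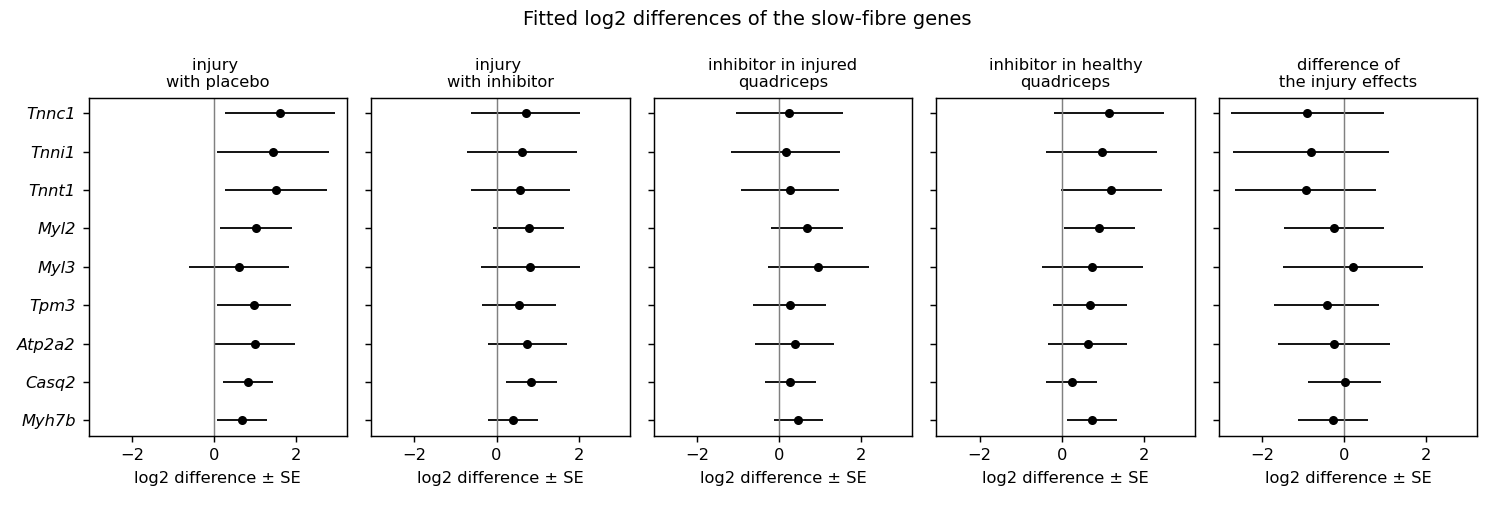
Fitted log2 differences with SE of the 9 members in 5 comparisons. In the first 4 the members lie above 0 with SE of 0.60 to 1.36. For the difference of the injury effects 7 of 9 lie below 0, with SE of 0.85 to 1.89. The fast counterparts, not drawn, lie between -0.34 and 0.21 in those 4 comparisons, with SE of 0.17 to 0.25.

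Pairing the quadriceps of each animal showed how unevenly the injured and healthy limbs differed. With the inhibitor, 9 of 9 members were higher in the injured limb of animals 1 and 2, with median log2 ratios of 0.28 and 4.04. In animal 3, 6 of 9 were higher (median 0.11), and in animal 4, 3 of 9 (median -0.79). With placebo, 9 of 9 were higher in the injured limb of animals 1 and 3 (medians 2.79 and 2.94), 2 of 9 in animal 2 (median -0.20) and 1 of 9 in animal 4 (median -1.66). Animals thus differed in direction within both treatments. By gene, 4 (Tpm3) to 6 (Tnni1, Myl2, Casq2, Myh7b) of 8 animals were higher in the injured limb. Myl2 and Casq2 were higher in 4 of 4 inhibitor animals and in 2 of 4 placebo animals. These counts were not tested. In the fits, the difference of the injury effects was -0.24 ± 1.22 (SE) for Myl2 and 0.01 ± 0.88 for Casq2, and neither was called.

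**Figure D4:**
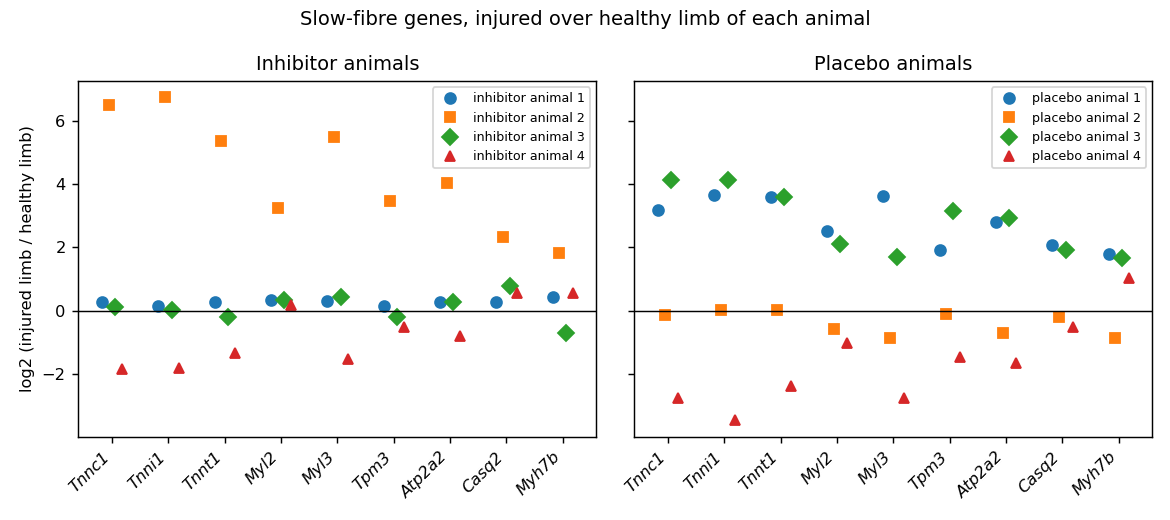
log2 ratio of injured over healthy quadriceps for each of the 9 members in each of 8 animals. The ratios run from -3.46 to 6.74, and the members of 1 animal mostly share a sign while animals of the same treatment do not.

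The members did not keep fixed proportions. Tnnc1 and Tnni1 stayed close, with a log2 ratio of -0.04 to 0.72 (SD 0.22 over 16 libraries). The log2 ratio of Tnni1 to Myl2 had an SD of 1.24, with a median of -1.38. It was highest in injured placebo replicates 2 (-0.42) and 3 (-0.57) and healthy placebo replicate 4 (-0.78). These were the 3 libraries highest in Myh3, at 145, 252 and 14.1 CPM. They were also the 3 highest in Prg4, at 220, 286 and 251 CPM. Healthy inhibitor replicate 1, next in Prg4 at 169 CPM, had a ratio of -1.17. The part of either gene in the ratio was not tested. The next in Myh3, injured placebo replicate 1 at 12.7 CPM, had a low ratio of -2.32, and healthy inhibitor replicate 4, with 2.38 CPM of Myh3, was near the median at -1.39. It was lowest in healthy inhibitor replicate 2 (-4.79), healthy placebo replicate 1 (-3.43), injured inhibitor replicate 4 (-3.36) and injured placebo replicate 4 (-3.22), which were among the 4 lowest libraries for 6 to 9 of the members.

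**Figure D5:**
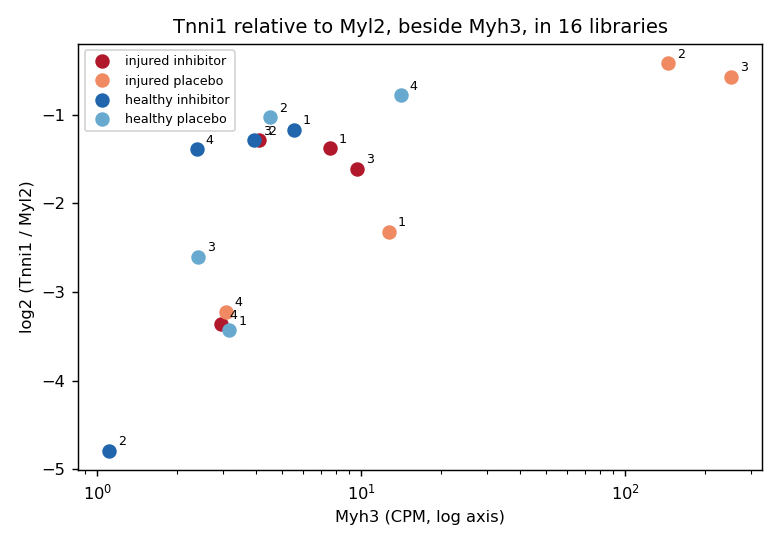
log2 ratio of Tnni1 to Myl2 against Myh3 CPM (log axis) in the 16 libraries, by group. The 3 libraries highest in Myh3 have the 3 highest ratios, -0.78 to -0.42, and are also the 3 highest in Prg4, not drawn. But injured placebo replicate 1, next in Myh3 at 12.7 CPM, has -2.32.

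Other slow-fibre genes, 12 on a list that includes Myh7, Myoz2, Csrp3 and Sln, gave 11 above 0 for transection with placebo (median 0.71, with 0 called) and 11 with the inhibitor (median 0.62, 0 called). For the inhibitor in injured quadriceps 9 of the 12 were above 0 (median 0.70) and in healthy quadriceps 10 (median 0.50), with 0 called in either. Tnnt2, the cardiac troponin T that developing muscle also uses, had a log2 difference of 2.89 ± 0.85 with placebo (edgeR adjusted p = 0.64) and of -2.62 ± 0.84 for the inhibitor in injured quadriceps (edgeR adjusted p = 0.23). Fabp3, the fatty acid binding protein of oxidative muscle, gave 0.87 ± 0.29 there (edgeR adjusted p = 0.23). Of 25 regulators of the slow programme edgeR called none in any comparison. For the inhibitor in injured quadriceps 9 had an unadjusted p below 0.05 and were higher and 1 was lower, against 5.82% and 9.03% of all genes. The smallest p values were those of Vgll2, a TEAD cofactor, at 1.02 ± 0.17 (edgeR adjusted p = 0.10), Nfatc2, a calcineurin-dependent factor, at -0.37 ± 0.10 (edgeR adjusted p = 0.19) and Ppargc1a, the coactivator of mitochondrial genes, at 0.54 ± 0.17 (edgeR adjusted p = 0.23). Of 20 calcium release and uptake genes, 2 were above 0 for transection with placebo and 18 below, 2 and 18 with the inhibitor, and 0 were called.

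Markers of other cells also differed between libraries. The summed CPM of the 14 macrophage markers ran from 34.9 to 71.2 in injured inhibitor, 65.8 to 517 in injured placebo, 30.7 to 91.9 in healthy inhibitor and 17.2 to 256 in healthy placebo quadriceps, and 13 of them were lower at an unadjusted p below 0.05 for the inhibitor in injured quadriceps, where edgeR called none and 9.03% of all genes were lower at that p. The summed tendon markers ran from 146 to 293 CPM in injured inhibitor, 133 to 517 CPM in injured placebo, 113 to 275 CPM in healthy inhibitor and 68.2 to 404 CPM in healthy placebo quadriceps. Their 4 lowest libraries, healthy placebo replicate 1 (68.2 CPM), healthy inhibitor replicate 2 (113 CPM), injured placebo replicate 4 (133 CPM) and injured inhibitor replicate 4 (146 CPM), were also the 4 with the lowest summed members. The high ends matched less. The highest tendon sums were in injured placebo replicates 2 (517 CPM) and 3 (431 CPM) and healthy placebo replicate 4 (404 CPM). Summed members there were 786, 2170 and 394 CPM. Injured inhibitor replicates 1 and 2, with 2150 and 1860 CPM of summed members, had 224 and 226 CPM of tendon markers. Over the 16 libraries r with the members was 0.71 for Kera, 0.66 for Tnmd and 0.65 for Thbs4. It was 0.63 for Scx and Fmod, 0.54 for Cilp2 and 0.37 for Tnc. Among the joint markers r was 0.78 for Chad, 0.54 for Comp, 0.41 for Prg4 and 0.23 for Col11a2. The 8 tested genes of developing and regenerating muscle, Myh3 among them, were all above 0 for transection with placebo (median 1.68, 0 called), as were 51.1% of all genes. Of the 8, 5 were higher at an unadjusted p below 0.05, which 7.24% of all genes reached either way. For the inhibitor in injured quadriceps 7 were below 0 (median -1.70, 0 called), where 46.9% of all genes were above 0. There 6 were lower at that p, against 9.03% of all genes. Myh3 was at 145 and 252 CPM in injured placebo replicates 2 and 3, and at 12.7 and 3.06 CPM in replicates 1 and 4. The summed joint markers ran from 33.3 to 42.2 CPM in injured inhibitor, 20.9 to 350 in injured placebo, 18 to 224 in healthy inhibitor and 14.4 to 325 in healthy placebo quadriceps. The summed members ran from 203 to 2150 CPM in injured inhibitor, 124 to 2170 in injured placebo, 112 to 1780 in healthy inhibitor and 139 to 1120 in healthy placebo quadriceps. The part of these markers in the member levels was not tested.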

How the data were processed

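The deposited table holds expected counts per Ensembl gene for 17370 genes and 16 libraries, not normalized, and the authors' role for each tool is not given: STAR, Partek and DESeq2, with GRCm38 and mm10, are named per the submitters' processing notes. Of the values, 33.8% were not whole numbers, and they were rounded. Symbols and coordinates came from GENCODE M21 by Ensembl identifier. Libraries differed from each other in at least 95% of genes. edgeR 4.0.16 (R 4.3.3) dropped 1959 genes by filterByExpr (minimum count 10), scaled by TMM and estimated a mean for each of 4 groups from the 16 libraries by robust quasi-likelihood (biological coefficient of variation 0.284), giving 5 comparisons, each two-sided, adjusted over 15411 genes at 0.05. The SE is the log2 difference divided by the square root of F. p values measure the spread between samples, which may be partly technical. Log2 CPM used a prior count of 1 for the deviations correlated between paired libraries. For the variance shares and for other genes' r with the members, 0.1 CPM was added before taking log2. Nothing was added for r between members or for the members' mean.

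The members and all lists were chosen with earlier results of these data known. Genes named outside the members include Myh7, the fast counterparts, up to 3 genes of each list with the smallest p, and the 10 genes most like the members. Actn3, Sox6, Prg4, Myh3, Myh6 and Myl4 were chosen for naming after their values were seen. Ppp3ca and Tbx15 were named as the regulators of lowest r with the members. Tendon and joint markers were named with their r where their mean log2 CPM was at least 1. Alternatives were DESeq2 1.42.0 and its size factors, limma-voom (limma 3.58.1), no filter, 8 libraries only, a block for the animal or replicate number, and leaving out libraries. The animal block rests on the shared label stem: deviations of pairs correlated at 0.21, -0.04, -0.02 and -0.09 in the 4 inhibitor animals, and at 0.44, -0.16, -0.11 and -0.51 in the 4 placebo animals. Scripts were tested on simulated data. Plots used matplotlib 3.10.9 in Python 3.11.15.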

Additional observations from a re-analysis of the deposited data

Results flagged for a closer look

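Of 36 groups of 4 libraries examined over the 9 members, 2 held a library far from the other 3 by Dixon's criterion, and chance flags about 1 in 20 groups. Casq2 in injured inhibitor replicate 4 was at 21.0 CPM, below the 63.6 to 71.3 CPM of the other 3 libraries of its group. Myh7b in healthy placebo replicate 2 was at 7.91 CPM, above the 1.46 to 2.50 CPM of the other 3.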

How the results depend on the processing

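No member was called in any comparison under any alternative. Members whose log2 difference changed sign did so as follows. Leaving out single libraries, the lowest and highest values were -0.29 and 1.25 for Myl3 (injury with placebo); -0.14 and 1.57 for Tnnc1, -0.23 and 1.19 for Tnni1, -0.16 and 1.43 for Tnnt1, -0.07 and 1.04 for Tpm3, -0.03 and 0.58 for Casq2 (inhibitor in injured quadriceps); -0.02 and 1.39 for Myl3, -0.03 and 1.53 for Atp2a2, -0.18 and 0.82 for Casq2 (inhibitor in healthy quadriceps); and, for the difference of the injury effects, -1.95 and 0.41 for Tnnc1, -1.91 and 0.20 for Tnni1, -1.72 and 0.21 for Tnnt1, -0.85 and 0.46 for Myl2, -0.43 and 1.11 for Myl3, -1.07 and 0.34 for Tpm3, -1.14 and 0.42 for Atp2a2, -0.55 and 0.45 for Casq2, -1.07 and 0.10 for Myh7b. Chosen after seeing the data, fits without the 4 libraries highest in Prg4 gave, for injury with placebo, Tnnc1 -0.61, Tnni1 -0.56, Tnnt1 -0.33, Myl3 -0.75 and Tpm3 -0.31; for the inhibitor in healthy quadriceps, Myl3 -0.16, Atp2a2 -0.15 and Casq2 -0.28; and for the difference, Tnnc1 2.14, Tnni1 2.05, Tnnt1 1.63, Myl2 1.15, Tpm3 1.48, Atp2a2 1.21 and Myh7b 0.52, with a member median of 1.48. Without the 2 libraries highest in Myh3, also chosen then, injury with placebo gave Tnnc1 -0.52, Tnni1 -0.51, Tnnt1 -0.31, Myl3 -0.60 and Tpm3 -0.36, and the difference gave Tnnc1 1.22, Tnni1 1.13, Tnnt1 0.89, Myl2 0.27, Tpm3 0.91 and Atp2a2 0.42. With limma-voom the inhibitor in injured quadriceps gave Tnnc1 -0.08, Tnni1 -0.17, Tnnt1 -0.05 and Tpm3 -0.07, and the difference gave Casq2 -0.15. With the animal as replicate block, the member median was 0.88 for injury with placebo, 0.65 with inhibitor and -0.31 for the difference, where Myl2 was 0.17; with the replicate number as block it was 0.43 and 0.42 for the inhibitor in injured and healthy quadriceps. The block changed no call of a member. Replicate numbers across treatments share only a number: 4 of 16 libraries correlated best with their own number, and 1 gene was called in injured quadriceps with that block against 0 without. Over all genes the inhibitor in injured quadriceps gave 0 calls with edgeR, 255 with DESeq2, 1229 with limma-voom and 39 without injured placebo replicate 4; the inhibitor in healthy quadriceps gave 11 with DESeq2, and injury with placebo 2 with DESeq2 and 3 without injured placebo replicate 4. The cause of these changes was not tested. With 2 placebo libraries left in a group, their spread is assumed to be that of the others.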
